A study of Mus musculus with 20 samples.

Results

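The genes described here are 10 apolipoproteins of liver and gut: Apoa1, Apoa2, Apoa4, Apob, Apoc1, Apoc2, Apoc3, Apoe, Apoh and Apom. They were taken as all probe sets annotated to exactly 1 of these symbols, which gave 17 probe sets among the 45037 tested, for 10 of the 18193 genes that had such a probe set. Each gene was represented by its brightest probe set on average, and the others are given beside it. RNA came from medullary thymic epithelial cells of single thymi from males 3 to 4.5 weeks old, sorted as CD45-, G8.8+, Ly51 intermediate and MHC class II high, and was hybridised to 20 mouse Affymetrix arrays. The groups were Aire KO mice and Aire WT mice of the B6 strain (3 KO and 3 WT), the BALB strain (4 KO and 4 WT) and the NOD strain (3 KO and 3 WT), with no treatment given in the labels. KO and WT are the genotypes of the labels, which do not describe the Aire allele.

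Apolipoproteins are the proteins of lipoprotein particles, which carry cholesterol and triglycerides in blood and lymph. They are made mainly by hepatocytes and enterocytes, hold the particle together, and act as cofactors of lipases or as ligands of receptors. Medullary thymic epithelial cells are known for transcribing many genes of other tissues, part of them under the control of the regulator Aire, so that developing T cells meet the products in the thymus.

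The single-symbol Aire probe set read higher in KO mice, with log2 intensities of 11.49 to 11.56 in B6 KO against 10.65 to 10.81 in B6 WT, 10.53 to 11.20 in BALB KO against 9.31 to 10.71 in BALB WT, and 11.80 to 12.04 in NOD KO against 10.96 to 11.45 in NOD WT. No source used here says where it lies relative to the disrupted part of Aire, so it does not check the genotype. The 15 bacterial control probe sets read between 3.02 and 5.74 on the log2 scale, and the median of all values was 6.48. Array medians lay between 86.3 and 90.9 on the linear intensity scale. Markers of mature medullary epithelium had a mean log2 intensity of 9.97 to 10.47 in KO mice and 9.997 to 10.42 in WT mice. Of these 15 genes, 3 were lower in KO (Krt5, Krt14 and Ivl) and 4 higher (Cd80, Relb, H2-Ab1 and H2-Eb1). The calls of Krt14 and Relb were lost in 12 and 18 of 32 alternatives. Other probe sets of Krt14 (adjusted p = 0.151 and 0.142) and Ivl (0.825) did not pass. Cyp24a1, also on this list, was not called on its brightest probe set, but its other probe set was lower (-1.21, adjusted p = 1.32e-06). That probe set had a mean log2 intensity of 5.10, in the range of the bacterial controls. The hepatocyte marker list averaged 5.83 to 6.36 in KO mice and 7.07 to 7.80 in WT mice, and 14 of its 17 measured genes were lower in KO. The endothelial list averaged 6.10 to 6.27 in B6 KO against 6.32 to 6.46 in B6 WT mice, 6.07 to 6.203 in BALB KO against 6.17 to 6.41 in BALB WT mice, and 5.95 to 6.15 in NOD KO against 6.39 to 6.50 in NOD WT mice, with 2 of 8 genes lower (Cd34 and Plvap) and 1 higher (Pecam1). Of 8 thymocyte markers 2 were lower (Cd3g and Dntt), of 8 fibroblast markers 4 were lower and 3 higher, of 6 B cell markers 2 were higher, and of 11 cortical epithelial markers 2 were lower and 2 higher. Over all genes 16.6% were lower and 9.70% higher, and a share near these is no result about a list. The part of these marker lists in the apolipoprotein results was not tested. Fewer cells of a type and less RNA per cell cannot be told apart in these bulk samples.

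Of the 10 genes, 5 were lower in KO mice averaged over the strains and none was higher: Apoa1, Apob, Apoc2, Apoh and Apoa4. Over all genes tested, 16.6% were lower and 9.70% higher (limma, Benjamini-Hochberg adjusted p under 0.05). Apoa1 fell in each strain, Apoh fell in NOD, and Apoa2, Apoc1, Apoc3, Apoe and Apom did not pass in the averaged comparison. By probe sets, 8 of 17 were lower, against 10.1% of all, and 1 was higher, against 10.5% of all. The median KO minus WT difference of the 10 genes was -0.55 on the log2 scale, against 0.01 over all genes.

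**Figure D1:**
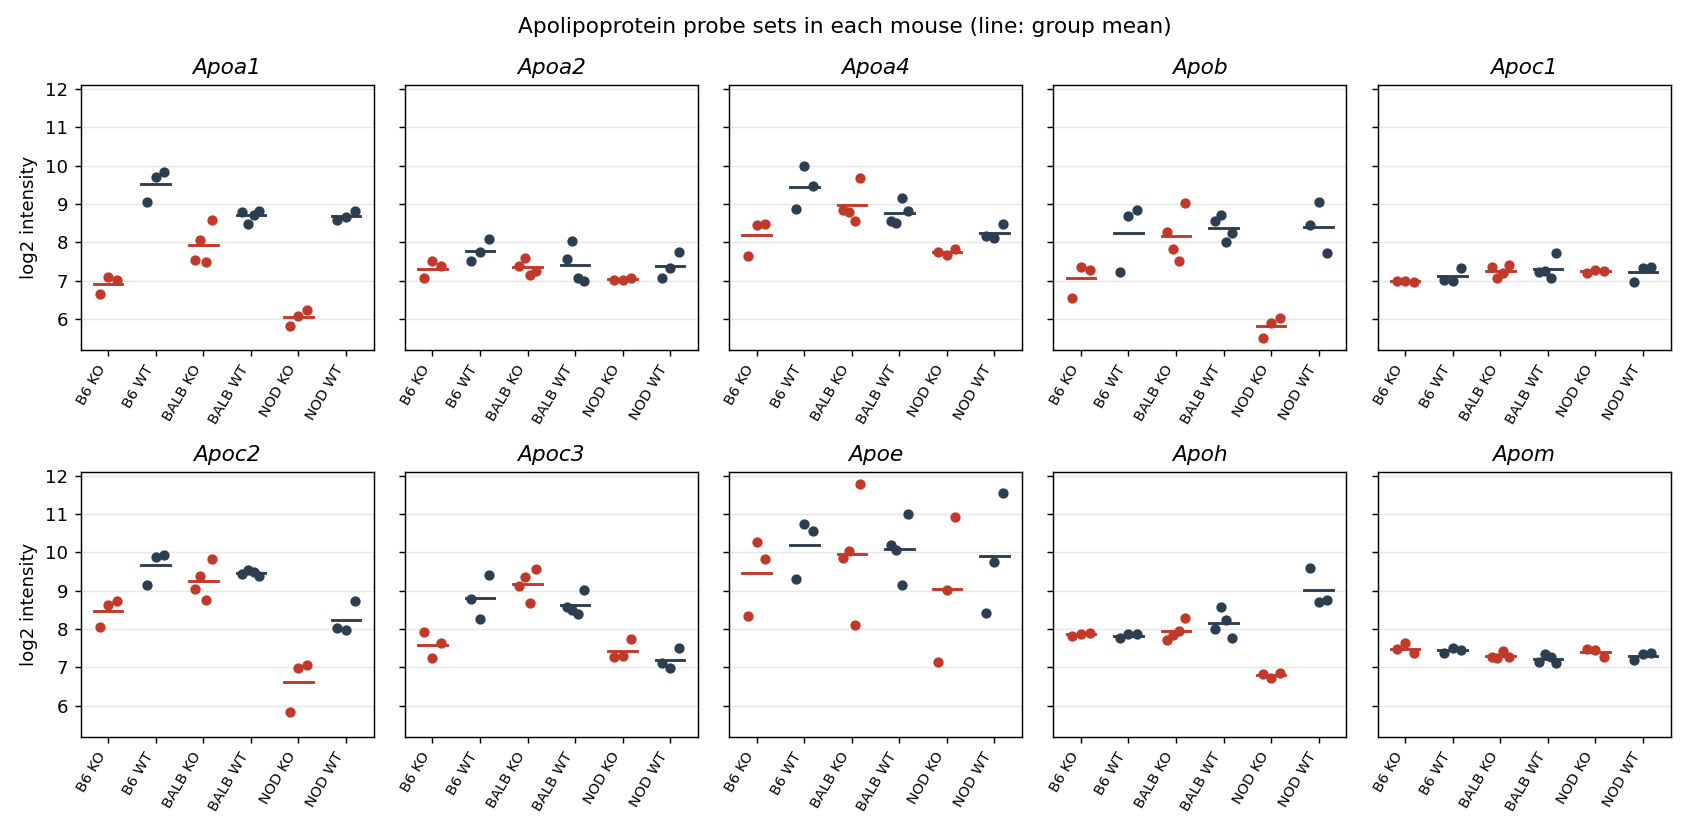
Log2 intensity (vertical axis) of the probe set that stands for each apolipoprotein gene, in each of 20 mice, with KO (red) left of WT (dark) in each strain and a line at the group mean. The Apoa1 mean lies lower in KO in each strain, Apoh lies lower in NOD KO mice, and Apoe spreads widely inside every group.

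The sequences just upstream of the 5 genes that fell are shown so that the members that fell can be compared for short motifs of known liver factors. They are the 140 bases before the first listed RefSeq transcription start in GRCm38.p6, 5′ to 3′ on the gene's strand, with capitals marking matches to TGTTTNC, the core of FOXA (forkhead factors of liver), or to GTTAAT, a core of HNF1 (a liver homeodomain factor), on either strand.
Apoa1 (chr9:46228490-46228629, plus strand): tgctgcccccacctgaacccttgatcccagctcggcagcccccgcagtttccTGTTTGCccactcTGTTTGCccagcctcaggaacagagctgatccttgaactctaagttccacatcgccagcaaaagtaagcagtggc
Apoa4 (chr9:46240704-46240843, plus strand): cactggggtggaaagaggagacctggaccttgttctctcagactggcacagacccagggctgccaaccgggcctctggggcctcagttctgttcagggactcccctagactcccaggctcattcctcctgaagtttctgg
Apob (chr12:7977537-7977676, plus strand): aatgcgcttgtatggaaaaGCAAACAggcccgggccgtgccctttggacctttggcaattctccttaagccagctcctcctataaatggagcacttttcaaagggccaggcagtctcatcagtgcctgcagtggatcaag
Apoc2 (chr7:19677942-19678081, minus strand): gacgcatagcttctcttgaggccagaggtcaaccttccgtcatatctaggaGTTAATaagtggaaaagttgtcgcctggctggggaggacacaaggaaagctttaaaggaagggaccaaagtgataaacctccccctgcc
Apoh (chr11:108395157-108395296, plus strand): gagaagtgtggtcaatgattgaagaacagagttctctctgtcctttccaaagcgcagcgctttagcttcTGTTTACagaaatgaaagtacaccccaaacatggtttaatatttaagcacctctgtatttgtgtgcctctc
Of the 10 genes, 8 were in the promoter table. In the 250 bases before the start, TGTTTNC was present in 5 of 8, against 17.9% of 27025 promoters, and GTTAAT in 1 of 8, against 6.52%. Also searched were CAAAG, a core of HNF4, in 5 of 8 against 48.8%, TATAAA on the gene's strand in 2 of 8 against 8.12%, and TTNNGNAA, a CEBP-like core, in 2 of 8 against 36.9%. CAAAG and TTNNGNAA matches overlap each other in Apob and Apoh, and a TGTTTNC match overlaps a TTNNGNAA match in Apoh. The shorter stretch printed was chosen after the matches had been seen, to stay clear of the gene upstream of Apoc2, and within it the first motif was in 5 of 8 against 9.49% and the second in 1 of 8 against 3.51%. In that stretch the third was in 4 of 8 against 29.5%, TATAAA in 1 of 8 against 5.04%, and TTNNGNAA in 2 of 8 against 21.3%. A match is a description of the letters and not evidence of binding. Apoa1 carried a pair of FOXA core matches, starting 88 and 75 bases before the start. TGTTTNC was in 3 of the 5 genes that fell (Apoa1, Apob and Apoh) and in 2 of the other 3 (Apoa2 and Apom). Apoa4, 1 of the genes that fell, carried neither capitalised motif.

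Apoa1, the main protein of high-density lipoprotein, had log2 intensities of 6.66, 7.09 and 7.03 in B6 KO mice, against 9.06, 9.70 and 9.83 in B6 WT mice. BALB KO mice read 7.54, 8.07, 7.50 and 8.57, against 8.80, 8.47, 8.73 and 8.82 in BALB WT mice. NOD KO mice read 5.82, 6.09 and 6.24, against 8.59, 8.67 and 8.82 in NOD WT mice. KO and WT mice did not overlap in B6 and NOD, and in BALB KO mouse 4 reached the WT range. Over all genes, every KO mouse lay below every WT mouse for 17.5% in B6, 9.31% in BALB and 15.4% in NOD. Groups that do not overlap are therefore common, here and for the genes below. Averaged over strains the difference was -2.01 ± 0.13 (SE, n = 20 mice), 4.03-fold lower in KO (adjusted p = 3.76e-09). The difference was -2.61 ± 0.24 in B6 (adjusted p = 9.69e-07), -0.78 ± 0.21 in BALB (adjusted p = 0.0285) and -2.65 ± 0.24 in NOD (adjusted p = 1.62e-06). The other 3 Apoa1 probe sets gave averaged differences of -1.73, -2.005 and -1.99. The BALB call of the first was lost in 6 of 33 alternatives (adjusted p up to 0.109), and that of the last of the other 3 in 20 of 33 (up to 0.162).

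The BALB fall of Apoa1 was smaller than that of the other strains. The BALB difference minus the B6 difference was 1.82 ± 0.32 (adjusted p = 0.0208), and the NOD minus BALB difference was -1.87 ± 0.32 (adjusted p = 0.0173). An F test of the strain difference gave adjusted p = 0.00836, 0.017 and 0.016 for 3 of the Apoa1 probe sets and 0.087 for the other. All 4 BALB calls among the 17 probe sets were Apoa1 probe sets, against 4.26% of all probe sets lower in BALB. By genes this was 1 of 10, against 7.48% of all genes. The probe set count was 0 with BALB arrays alone, and 0 without BALB KO mouse 1 or without BALB KO mouse 3. In order of level, Apoa1 was highest in B6 WT (9.53), then BALB WT (8.70), NOD WT (8.69), BALB KO (7.92), B6 KO (6.93) and NOD KO (6.05), where the BALB and NOD WT neighbours overlapped.

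Apoa4, a protein of chylomicrons made in the intestine, and Apoa2, the second protein of high-density lipoprotein, are the other A members. Apoa4 read 7.63, 8.45 and 8.47 in B6 KO mice, against 8.87, 9.998 and 9.46 in B6 WT mice, and the groups did not overlap. NOD KO mice read 7.74, 7.68 and 7.82, against 8.16, 8.12 and 8.49 in NOD WT mice, which also did not overlap. In NOD, KO mice lay wholly below WT mice for 15.4% of all genes. BALB KO and WT mice overlapped, at 8.57 to 9.68 and 8.50 to 9.15. The averaged difference was -0.52 ± 0.16 (adjusted p = 0.0301) and the B6 difference -1.26 ± 0.29 (adjusted p = 0.00969). The NOD difference was -0.51 (adjusted p = 0.519) and the BALB difference 0.21 (adjusted p = 0.734), and the strain difference itself did not pass (F test adjusted p = 0.345). The averaged call was lost in 8 alternatives, with B6 WT mouse 2 or 3, B6 KO mouse 1, BALB WT mouse 3, BALB KO mouse 3, NOD WT mouse 3 or NOD KO mouse 2 left out, or with myeloid markers as a covariate. The other Apoa4 probe set did not pass (-0.47, adjusted p = 0.187), but passed in 4 of 32 alternatives, the block by mouse number among them (adjusted p 0.0137 to 0.35 over the alternatives). Apoa2 did not pass, at -0.29 ± 0.13 (adjusted p = 0.118), and likewise passed in 4 of 32, with the same block among them (adjusted p 0.0127 to 0.253).

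Apob is the structural protein of chylomicrons and low-density lipoprotein. It read 5.51, 5.90 and 6.04 in NOD KO mice, against 8.45, 9.04 and 7.72 in NOD WT mice, without overlap. B6 KO mice read 6.56, 7.37 and 7.28, against 7.23, 8.69 and 8.84 in B6 WT mice, and BALB KO mice 8.27, 7.83, 7.51 and 9.02, against 8.55, 8.73, 8.01 and 8.26 in BALB WT mice. The groups overlapped in B6 and in BALB. The averaged difference was -1.33 ± 0.23 (adjusted p = 0.000404) and the NOD difference -2.59 ± 0.42 (adjusted p = 0.000847). B6 (-1.18, adjusted p = 0.0997) and BALB (-0.23, adjusted p = 0.807) did not pass, and the strain difference did not pass either (adjusted p = 0.203). The other Apob probe set read 6.11 to 6.64 in all mice and did not pass (0.11, adjusted p = 0.295).

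Among the C apolipoproteins, which regulate lipoprotein lipase and particle clearance, Apoc2, the activator of the lipase, fell. It read 5.85, 6.98 and 7.05 in NOD KO mice, against 8.03, 7.99 and 8.72 in NOD WT mice. In B6 it read 8.06, 8.64 and 8.73 in KO mice, against 9.16, 9.89 and 9.94 in WT mice. Neither strain's groups overlapped. BALB KO mice at 8.76 to 9.82 overlapped BALB WT mice at 9.40 to 9.53. The averaged difference was -1.01 ± 0.18 (adjusted p = 0.000394), with -1.19 in B6 (adjusted p = 0.0238), -0.21 in BALB (adjusted p = 0.76) and -1.62 in NOD (adjusted p = 0.00422). The B6 call was lost in 5 of 33 alternatives (adjusted p up to 0.145), among them without B6 WT mouse 2, B6 WT mouse 3 or B6 KO mouse 1, and the NOD call in 1 of 33, with NOD arrays alone (0.0517). The difference between strains did not pass (adjusted p = 0.462).

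Apoc3, an inhibitor of triglyceride clearance, fell in B6 and did not pass in the averaged comparison. It read 7.92, 7.25 and 7.63 in B6 KO mice, against 8.78, 8.25 and 9.42 in B6 WT mice, and fell there by 1.22 on the log2 scale (adjusted p = 0.00726). That call was lost in 3 of 33 alternatives (adjusted p up to 0.113), among them without B6 WT mouse 3. In BALB and NOD it did not pass, at 0.56 (adjusted p = 0.198) and 0.24 (adjusted p = 0.83). With mouse number as a block the BALB difference passed (0.56, adjusted p = 0.00998). Averaged over strains the difference was -0.14 (adjusted p = 0.531), and the strain difference did not pass (adjusted p = 0.0667). Apoc1, an inhibitor of lipoprotein receptor uptake, did not pass (-0.06 ± 0.08, adjusted p = 0.654) and read 6.97 to 7.72 in all mice.

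Apoe, the ligand through which remnants are taken up, is also made by macrophages. It read 8.34, 10.26 and 9.83 in B6 KO mice, against 9.31, 10.74 and 10.56 in B6 WT mice. In NOD it read 7.15, 9.03 and 10.92 in KO mice, against 8.41, 9.75 and 11.54 in WT mice, and in BALB it spanned 8.11 to 11.79 in KO mice and 9.14 to 10.99 in WT mice. The range within a group was wider than the difference between groups. The averaged difference was -0.58 ± 0.53 (adjusted p = 0.454), and it passed in 1 of 32 alternatives, with mouse number as a block (adjusted p = 0.00403). In B6, deviations over all probe sets correlated for mouse numbers 1 and 2 (0.78 and 0.72) but not for number 3 (-0.13). With mouse number as a block, the NOD difference of -0.87 passed (adjusted p = 0.0332). The within-group SD was 1.30 log2 units, larger than that of all but 7 of the probe sets, whose median SD was 0.197.

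Across the 20 arrays, as deviations from group means, Apoe moved with the mean of 20 dendritic cell and macrophage markers (Pearson r = 0.935, permutation p = 2e-05, adjusted over the 10 genes 2e-04; Spearman rho = 0.905, permutation p = 4e-05, adjusted 4e-04). Permutations were made within groups and treated the 20 mice as independent. Deviations over all probe sets correlated between KO and WT mice of the same number in BALB (0.46 to 0.66) and NOD (0.31 to 0.67). In the marker mean, NOD WT mouse 1 and NOD KO mouse 1 deviated by -1.06 and -0.86. The permutation p-values given here, for Apoe and for the other genes, may therefore be too small. Without the 2 mice whose marker deviations lay farthest from the median deviation (NOD KO mouse 1 and NOD WT mouse 1), r was 0.932. Within the run of consecutive sample codes that held 7 mice it was 0.942. These deviations were still from group means over all runs, so that value does not remove differences between runs. B6 KO mouse 1, NOD WT mouse 1 and NOD KO mouse 1 were the only mice of their groups in that run. Apoc2 (r = 0.752), Apoa1 (r = 0.581), Apoc1 (r = 0.557) and Apoc3 (r = 0.489) also passed on r, with adjusted p = 0.00323, 0.00323, 0.0422 and 0.0422. On Spearman rho, Apoc2, Apoa1 and Apoc1 passed (adjusted p = 0.0148, 0.00355 and 0.0355) and Apoc3 did not (rho = 0.496, adjusted p = 0.0744). The marker mean lay at 7.40 to 7.84 in B6 KO and 7.93 to 8.28 in B6 WT mice, 7.16 to 8.48 in BALB KO and 7.44 to 8.27 in BALB WT mice, and 7.35 to 8.95 in NOD KO and 7.56 to 9.56 in NOD WT mice, after a sort that took CD45- cells. Of its 20 genes, 2 were lower in KO (Adgre1 and Cd14) and 1 higher (Fcer1g), and their part in the apolipoprotein results was tested only as a covariate. With the marker mean as a covariate the averaged differences of Apoa1 (-1.91, adjusted p = 3.94e-09), Apob (-1.23, adjusted p = 0.00128), Apoc2 (-0.82, adjusted p = 0.000168) and Apoh (-0.85, adjusted p = 4.9e-05) kept their calls, while those of Apoe (0.11) and Apoc1 (0.0018) changed sign and did not pass.

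**Figure D2:**
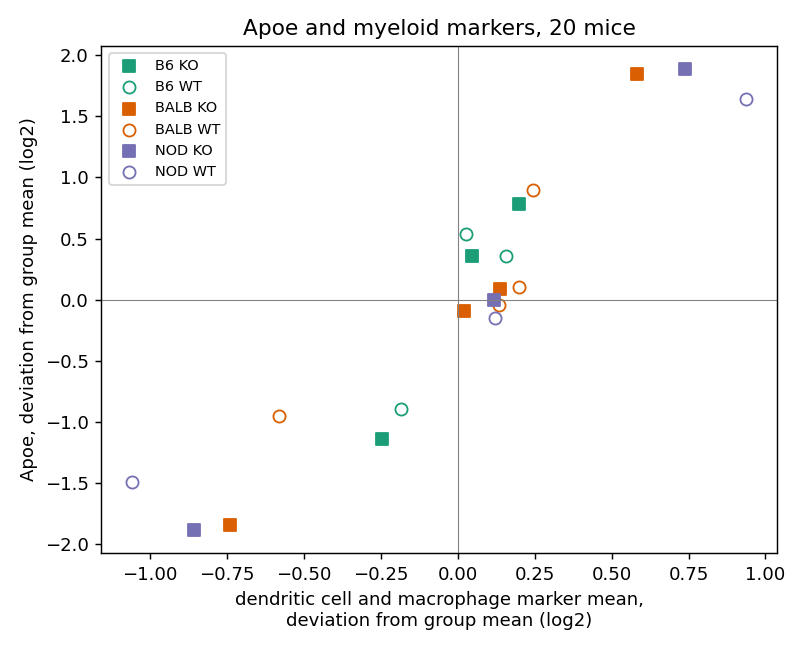
Apoe (vertical axis) against the mean of 20 dendritic cell and macrophage markers (horizontal axis), both as deviations from the group mean in log2 units, for 20 mice, with filled squares for KO and open circles for WT. The points follow a rising line (r = 0.935).

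Apoh, a phospholipid-binding protein of plasma, fell in NOD, and the test of the difference between strains passed. It read 6.82, 6.73 and 6.84 in NOD KO mice, against 9.59, 8.71 and 8.76 in NOD WT mice, without overlap. B6 KO mice read 7.82, 7.88 and 7.90, against 7.76, 7.88 and 7.86 in B6 WT mice, and BALB KO mice 7.71 to 8.28, against 7.78 to 8.58 in BALB WT mice. The NOD difference was -2.22 ± 0.21 (4.66-fold lower, adjusted p = 2.59e-06), against 0.04 in B6 (adjusted p = 0.943) and -0.20 in BALB (adjusted p = 0.615). The F test of the strain difference gave adjusted p = 0.00173, with NOD minus B6 -2.26 (adjusted p = 0.00228) and NOD minus BALB -2.02 (adjusted p = 0.00553). NOD WT mice stood above B6 WT mice by 1.19 (adjusted p = 0.00158) and above BALB WT mice by 0.86 (adjusted p = 0.012), while NOD KO mice stood below B6 KO mice (-1.07, adjusted p = 0.00288) and BALB KO mice (-1.15, adjusted p = 0.000831). The second Apoh probe set read 5.51 to 6.53 and was higher in KO on average (0.33, adjusted p = 0.0365; with myeloid markers as a covariate, 0.07), opposite in sign to the first. That call was lost in 15 of 32 alternatives (adjusted p 0.0036 to 0.101). With mouse number as a block it passed in BALB too (0.44, adjusted p = 0.0197). Apom, a carrier of sphingosine 1-phosphate, had the smallest within-group SD of the 17 probe sets (0.100) and did not pass, at 0.08 and 0.12 for its 2 probe sets.

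**Figure D3:**
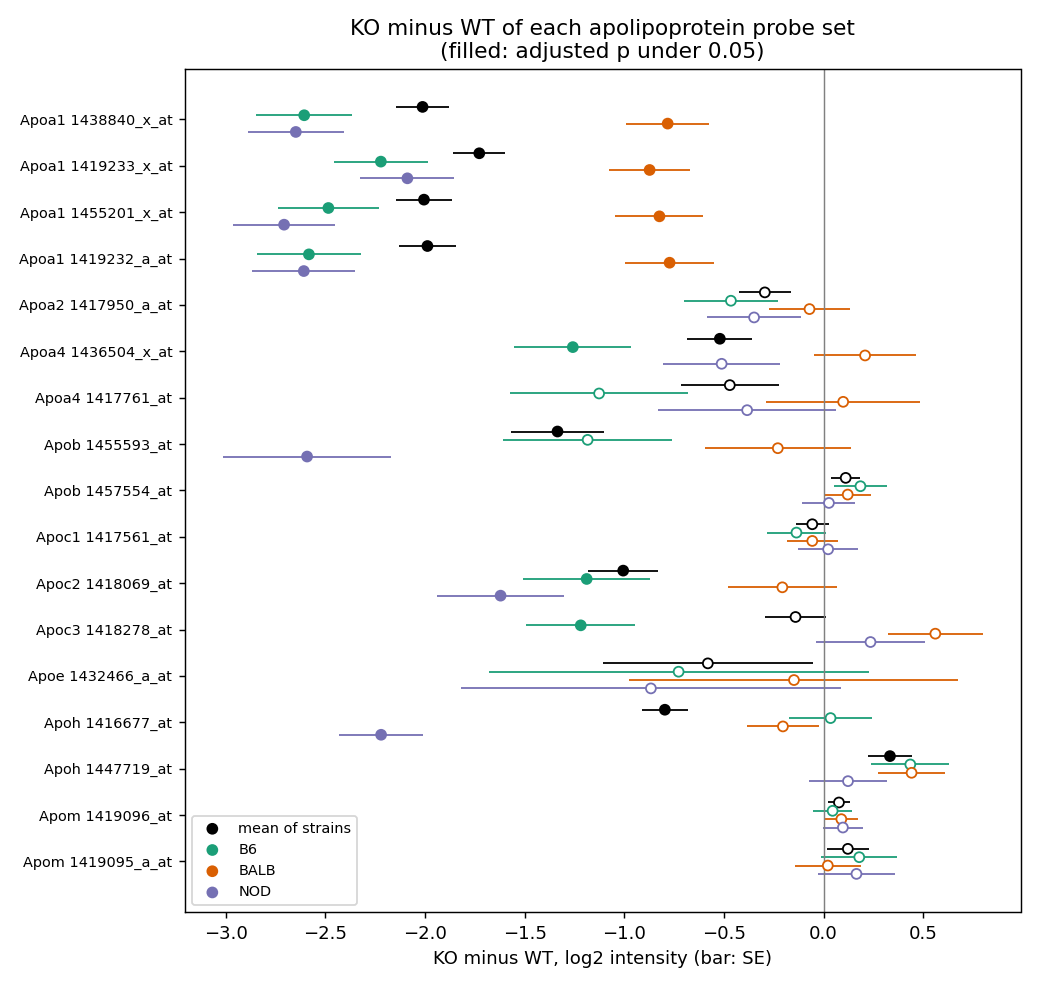
KO minus WT in log2 intensity (horizontal axis, bars are SE) for the 17 probe sets (rows), averaged over strains (black) and in each strain, filled where adjusted p was under 0.05. The 4 Apoa1 probe sets are filled throughout, and the first Apoh probe set is filled in NOD and in the average.

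By strain, 7 of the 17 probe sets were lower in B6 KO mice (5.54% of all probe sets), 4 in BALB KO mice (4.26%) and 7 in NOD KO mice (2.81%). Each of these counts holds the 4 Apoa1 probe sets. Of the 10 genes, 4 were lower in B6 (9.27% of all genes), 1 in BALB (7.48%) and 4 in NOD (4.70%), so the BALB share is near that of all genes. No probe set was higher in B6 (3.08% of all), BALB (2.57%) or NOD (1.42%). Unadjusted p was under 0.05 in either direction for 10, 6 and 7 of the 17, against 20.7%, 19% and 13.4% of all probe sets. The KO effect differed between strains for 4 of 17 (0.435% of all), namely 3 Apoa1 probe sets and 1 of Apoh. Among WT mice, strain differences passed for 5 of the 17 (11.3% of all), each of a different gene: Apoa1, Apoa4, Apoc2, Apoc3 and Apoh. That count was 2 without NOD WT mouse 1 or 2, 3 without B6 WT mouse 2 or 3, and 9 without B6 WT mouse 1 or BALB KO mouse 4. Among KO mice they passed for 9 of 17 (17.9% of all), and for 6 of the 10 genes (21.7% of all genes). Apoc3 in WT mice was lower in NOD than in B6 (-1.61, adjusted p = 0.00109) and in BALB (-1.42, adjusted p = 0.00205). Apoc2 in WT mice was lower in NOD than in B6 (-1.42, adjusted p = 0.00948) and in BALB (-1.22, adjusted p = 0.0187).

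The apolipoprotein genes lie partly in clusters. In RefSeq order on chromosome 9 (GRCm38.p6) the genes run Sik3, Apoa1, Apoc3, Apoa4, Apoa5, Zpr1 and Bud13, and on chromosome 7 Relb, Clptm1, Apoc2, Apoc4, Apoc1, Apoe, Tomm40 and Nectin2. On chromosome 9 Apoa1 fell and Apoa4 fell, while Apoc3 (-0.14, adjusted p = 0.531), Apoa5 and Zpr1 did not pass and Sik3 was higher in KO (0.66, adjusted p = 9.32e-07). On chromosome 7 Apoc2 fell, Apoc4, Apoc1, Apoe and Clptm1 did not pass, and Relb was higher (0.63, adjusted p = 0.044), a call lost in 18 of 32 alternatives. Among all 61 neighbours, taken as the 5 nearest measured genes on each side, 5 were lower (8.2%, against 16.6% of all genes) and 9 higher (14.8%, against 9.70%), with a median difference of 0.05. Beside Apoh on chromosome 11, Cacng5 was lower (-1.27, adjusted p = 7.07e-07) and Prkca higher (1.14, adjusted p = 5.41e-09).

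**Figure D4:**
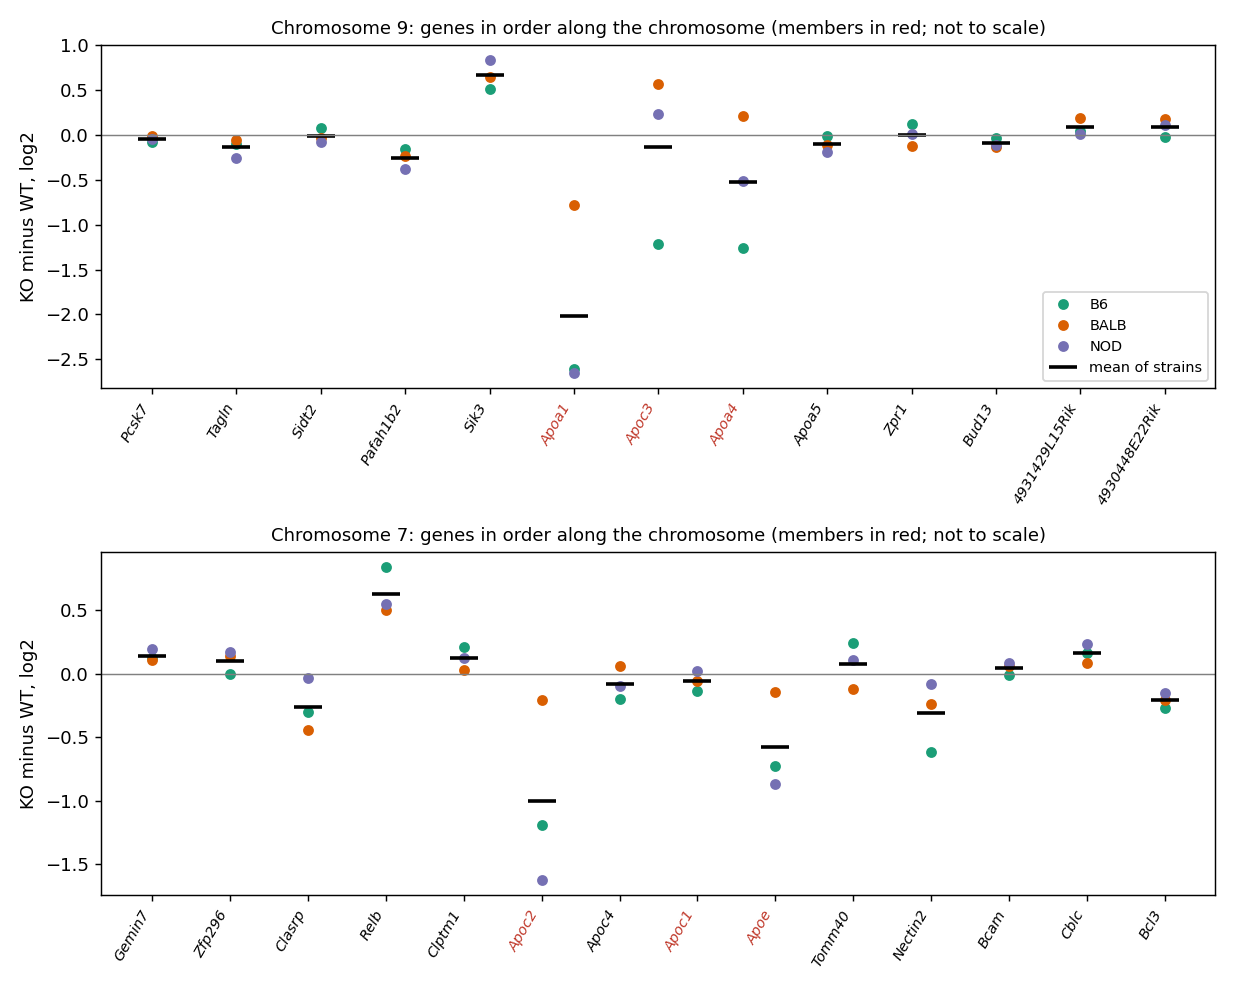
KO minus WT in log2 intensity (vertical axis) of genes in chromosomal order, not to scale, for the chromosome 9 and chromosome 7 clusters, with points for strains and a black dash for their mean. Apoa1 and Apoc2 lie below their neighbours, and Sik3 and Relb above 0.

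Genes of the same pathways were described from lists, to be read against the 16.6% of all genes that were lower and the 9.70% that were higher, and a share near these is no result about a list. Of 17 other measured genes, listed by an apolipoprotein name or as plasma partners, 8 were lower and 2 higher in KO (median -0.20). Saa1, Saa3 and Saa2, acute-phase proteins carried on high-density lipoprotein, were lower (-2.67, -2.21 and -1.44, adjusted p = 5.76e-10, 1.79e-09 and 3.56e-05), and Apool (0.41) and Lcat, the enzyme that esterifies cholesterol (0.19), were higher, calls lost in 13 and 10 of 32 alternatives. Of 16 assembly and secretion genes 2 were lower, Fabp2 (-2.80) and Fabp1 (-1.32), both fatty acid-binding proteins, and 3 were higher, Mttp, which lipidates Apob (0.59), Sar1b (0.42) and Apobec1 (0.23, lost in 18 of 32 alternatives). Fabp1 did not fall in BALB (0.16, adjusted p = 0.79), and Fabp2 fell less there (-1.49) than in B6 (-3.69) or NOD (-3.22). The strain difference passed for Fabp1 and Fabp2 (F test adjusted p = 0.00451 and 0.0336). The second Mttp probe set did not pass (0.42, adjusted p = 0.086).

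Of 14 receptors, Olr1 (-1.18) and Lrp2 (-0.67) were lower and Vldlr (0.40) and Sorl1 (0.37) higher, and of 13 lipases and transfer proteins Lipa (-0.62) was lower and Lipg (0.20) higher. The calls of Lipa (21 of 32 alternatives), Vldlr (18 of 32), Sorl1 (6 of 32) and Lipg (5 of 31) were lost in the alternatives given in brackets, and other Lipa and Lipg probe sets did not pass. The receptor Scarb1 did not pass on its brightest probe set (-0.24, adjusted p = 0.0637). Its 2 dimmer probe sets were lower (-1.61 and -1.50, adjusted p = 0.00185 and 0.00141). Of 23 regulators of apolipoprotein genes 5 were lower and 2 higher. The lower ones were Ppargc1a (-1.13), Cdx2 (-0.57), Nr1h4, the bile acid receptor (-0.54), Hnf4a (-0.44, adjusted p = 0.00057) and Foxa2 (-0.37, adjusted p = 0.00923). Nr5a2 (0.74) and Hnf4g (0.50) were higher. A dimmer Hnf4a probe set was lower too (-0.59, adjusted p = 0.000208), and its others did not pass. The Hnf4a and Foxa2 calls were not followed through the alternatives, and their part in the apolipoprotein results was not tested. The Olr1 and Nr1h4 probe sets had mean log2 intensities of 4.56 and 5.55, in the range of the bacterial controls. The other Cdx2 probe set did not pass (0.03, adjusted p = 0.736). Of 15 enterocyte markers, 7 were lower and 1 higher (Cdh17, 0.43). Beside the 10 genes' median of -0.55, the hepatocyte list had a median of -1.33, with Fgg (-3.99), Fgb (-3.28) and Itih3 (-3.10) falling most.

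**Figure D5:**
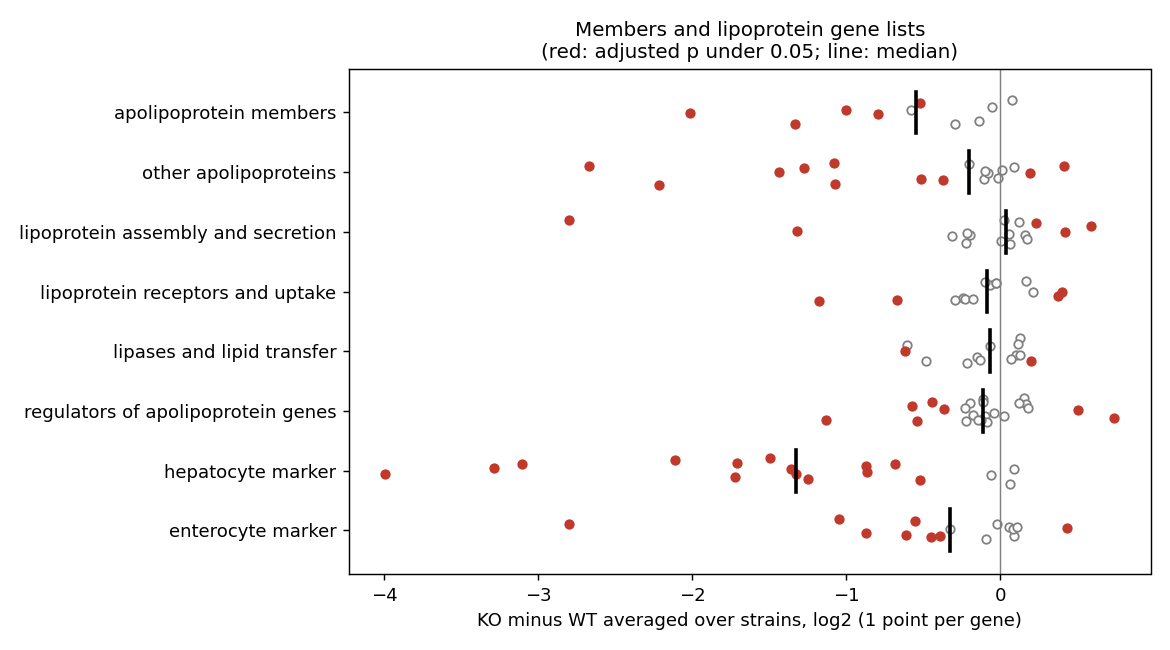
Averaged KO minus WT in log2 intensity (horizontal axis), 1 point per gene, for the 10 apolipoproteins and 7 lists (rows), in red where adjusted p was under 0.05, with a line at each median. The hepatocyte marker line lies at -1.33 and that of the apolipoproteins at -0.55.

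Genes most like each fallen member were ranked by Pearson r of log2 intensity over the 20 arrays among 18192 genes, as a description with no test, since all share the genotype groups. Apoa1 was nearest to Fabp2 (0.959), Trim31 (0.937) and Ccn3 (0.932). Apob was nearest to Fabp1 (0.873), Htra1 (0.86) and Apoa1 itself (0.852), and Apoa4 to Clu (0.903), Txndc16 (0.892) and Tmem236 (0.888). Apoc2 was nearest to Klk1b16 (0.947), Hepacam2 (0.94) and Klk1b11 (0.933), and Apoh to Trpa1 (0.793), Pid1 (0.787) and Mettl7b (0.752). As deviations from group means, the nearest were Oplah for Apoa1 (0.875), Plxnb2 for Apoa4 (0.906), Atl3 for Apob (0.798), Arg1 for Apoc2 (0.91) and Slc24a1 for Apoh (0.823). Among pairs of members, deviations correlated most for Apoc2 with Apoe (0.857), Apoa1 with Apoc2 (0.811) and Apoa1 with Apoa4 (0.776), over arrays that share their sort and their marker mean.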

How the data were processed

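Expression was measured on mouse Affymetrix arrays in 20 samples of 6 groups, taken from the sample titles. Per the labels' protocols, Trizol-extracted RNA went through repeated antisense amplification before biotin labelling, which can favour 3′ ends. The deposited values are intensity per probe set on a linear scale, made by the authors with RMA per the submitters' processing notes, with its version and settings not given in the sources used here. The scale was read from the values (6.55 to 18395). Of 45101 probe sets, 64 controls were left out, and log2 intensity was fitted with limma 3.58.1 in R 4.3.3 (6 group means, 14 residual degrees of freedom, Benjamini-Hochberg over 45037 probe sets, threshold 0.05). Array numbers limit the precision. The labels call the samples individual mice. The named genes were all members, each list's called genes if 6 or fewer (otherwise the 3 largest falls and rises), the 5 measured neighbours on each side, and the 3 genes most like each called member, of which the text gives a part. A few more were named beyond this rule, such as Hnf4a and Foxa2, since motifs of their families had been searched. The members, lists and tests were chosen with earlier results of these data known. Deviations of KO and WT samples with the same mouse number correlated in BALB (0.46 to 0.66) and NOD (0.31 to 0.67). In B6 they correlated for numbers 1 and 2 (0.78 and 0.72) but not for number 3 (-0.13). Mice of different numbers were not compared, and same-number mice in BALB and NOD also shared a run of sample codes. Whether the number itself pairs the mice is therefore not shown, and the block by mouse number is given only as an alternative. Fits were tested on simulated data. Alternatives were 2 scalings, an offset of 16, a filter at mean log2 of 6, variance models, array weights, covariates, blocks, subsets of arrays and each mouse left out. Promoters and gene order are from RefSeq (GRCm38.p6). Permutation tests used 100000 permutations.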

Additional observations from a re-analysis of the deposited data

Results flagged for a closer look

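The KO minus WT difference of Apoa1 differed between strains in 3 of its 4 probe sets (F test adjusted p = 0.00836, 0.017 and 0.016), with the smallest fall in BALB, and that of Apoh differed in its first probe set (adjusted p = 0.00173), with the fall in NOD. Among the 34 groups of 4 mice examined, 3 held a mouse far from its group: BALB KO mouse 2 for the second Apob probe set (6.14, below the others), BALB KO mouse 3 for Apom (7.42, above the others) and BALB WT mouse 1 for an Apoa1 probe set (8.48, above the others). Chance flags about 1 in 20 groups.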

How the results depend on the processing

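Counts of called probe sets among the 17 were computed for 7 comparisons in 225 alternatives, of which 203 stayed within 1.5 times the main count. The averaged comparison gave 9 (7 to 10 with 1 mouse left out), the NOD comparison 7 (7 in each such fit), the KO strain comparison 9 (9 to 11), and none of these moved by over 1.5 times in any alternative run. B6 gave 7, with 5 to 9 when 1 mouse was left out, 11 with the Gapdh 3′ minus 5′ signal as a covariate and 4 with B6 arrays alone. BALB gave 4, with 0 to 4 when 1 mouse was left out and 0 with BALB arrays alone. Strain differences of the KO effect gave 4, with 4 to 5 when 1 mouse was left out and 7 with array weights. Strain differences in WT gave 5, with 2 to 9 when 1 mouse was left out, 9 with array weights, 9 with the Gapdh covariate, 10 with the dendritic cell and macrophage covariate and 3 without B6 WT mouse 2 and B6 KO mice 2 and 3. With mouse number as a replicate block the averaged count was 12, B6 12, BALB 6, NOD 8 and the strain difference 9, and this fit cannot compare strains within a genotype. Deviations of the B6 mice numbered 3 did not correlate (-0.13), and the 12 averaged calls include Apoa2, Apoe and the second Apoa4 probe set. For single probe sets and genes, 92 results in 2956 alternatives gave 216 losses of a call, 10 gains (Apoa2 4, the second Apoa4 probe set 4, Apoe 1 and an Apom probe set 1) and 2 reversals: Apoe (0.11) and Apoc1 (0.0018) with the dendritic cell and macrophage covariate. The causes were not tested. Shortening the motif search from 250 to 140 bases was chosen after seeing the data. It could not change the FOXA count of 5 of 8, since those matches lay within 121 bases of the start. The CAAAG count went from 5 to 4 of 8 and the TATAAA count from 2 to 1 of 8. Probe sets near the bacterial controls carry folds that may be understated.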
